A study of Mus musculus with 12 samples.

Results

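Spot brightness in the kidney cortex of control mice was described from the 3 arrays that carried control RNA in both colours, out of 12 arrays in the series. These arrays were chosen by their titles alone, and their probes were ranked by brightness with no comparison between groups. The RNA came from 3 numbered cortex samples, Control 1, Control 2 and Control 3, whose treatment and disease state are both given as control. The other 3 cortex samples of the series are labelled menopausal and carry the treatment VCD. They enter below where brightness was set against that on other arrays, in the pairs over all 12 arrays and in the fit of one test. The sources used here do not give strain, sex or age, or whether 1 mouse or a pool made up a sample. Per the labels, total RNA was amplified as antisense RNA, copied into cDNA and coupled to Alexa Fluor 546 or Alexa Fluor 647. Control 1 met Control 2, Control 2 met Control 3 and Control 3 met Control 1, so each sample was measured once in each colour, giving 6 channel measurements.

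The kidney cortex is mostly proximal tubule, an epithelium that reabsorbs salt, sugars, amino acids and filtered proteins. It is packed with mitochondria, gains much of its ATP from fatty acids, and carries a large endocytic and lysosomal system. The cortex also holds glomeruli, distal and connecting tubules, the upper collecting ducts, vessels and scattered interstitial cells.

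The array carried 15600 probes, each spotted as 2 copies. The brightness of a probe is the log2 of the spot median minus the local background median, averaged over the copies and the 6 measurements. It depends on how well a probe binds and labels as well as on the amount of transcript. The order of brightness between probes is therefore a description, and transcript abundance cannot be read from it strictly. A probe was counted as above background where, in at least 4 of 6 measurements, the spot was brighter than its surroundings by more than 2 SDs of the local background. This held for 4977 probes, 31.9% of all, and for 2563 probes in 6 of 6 measurements. Percentiles are positions among the 4977. The names of all genes below rest on an order of the spots inferred from their brightness, and the names of the samples on the scanner tables as labelled, which the columns of the deposited value table do not match. Exactly 1 gene symbol was given for 9191 probes, several for 254, and 6155 are unnamed here. A gene is represented by its brightest probe above background. Of 6786 genes on the array 2974 were above background (43.8%), and 297 of these formed the brightest 10% (4.38% of all genes). The last gene inside that 10% had a brightness of 11.262 and the first outside it 11.26. The level of a gene in a sample is its log2 brightness minus the channel's median over probes above background, averaged over the sample's 2 channels. Levels are given as mean ± SD over the 3 control samples. Where a copy of a spot did not exceed its background it was set to a floor, and the channel's level then shows no more than that. For genes with such measurements the range over their other measurements is given instead, and no order of the samples is read from it.

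The 3 arrays differed in quality. On the array of Control 1 with Control 2, 37.2% and 43.1% of spots did not exceed the local background in the 2 channels. On that of Control 2 with Control 3 the shares were 55.2% and 54.5%, and on that of Control 3 with Control 1 they were 16.7% and 13.4%. Control 2 was the only control sample that was not on the last of these. A sample's level averages channels from 2 arrays, and each array serves 2 samples. Orders of the samples by level, and the SDs, therefore also hold differences between arrays. The test of differences described below uses ratios within arrays instead. The order of brightness followed the array more than the RNA. Over the probes above background, Spearman's rho was 0.917 to 0.939 for the 3 pairs of different RNAs on 1 array. It was 0.577 to 0.773 for the 3 pairs of 1 RNA on 2 arrays, and 0.525 to 0.778 for the 9 pairs of different RNAs on 2 arrays. The points share probes, spots and local background, and the values are descriptive. Within 48 blocks of spots, rho between a control array and the mean of the 9 other arrays had a median of 0.823, 0.824 and 0.976 on the 3 arrays in the same order, and 1 block of the array of Control 2 with Control 3 was at 0.0207. For gene lists, and for single genes that moved, the range with each control array left out is given beside the value.

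**Figure D1:**
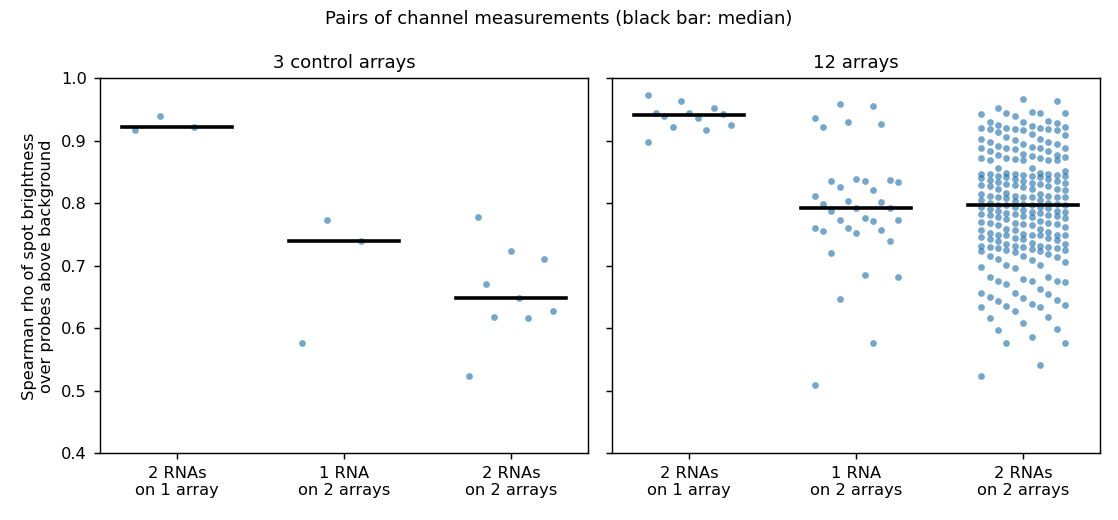
Spearman's rho of spot brightness (vertical axis) between pairs of channel measurements over the 4977 probes above background, for the 3 control arrays and for all 12 arrays. Each point is a pair and the black bar is the median, which was 0.923, 0.740 and 0.648 for the control arrays and 0.941, 0.792 and 0.798 for all arrays, from left to right.

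The brightest named gene was Eef1a1, the elongation factor that brings aminoacyl-tRNA to the ribosome. Its levels were 6.10, 6.18 and 5.61 in Control 1, 2 and 3 (5.97 ± 0.31). Control 3 was the lowest sample, and the percentile of Eef1a1 stayed between 99.6 and 99.9 with 1 control array left out. Of its 16 other probes 15 were above background, the brightest of them at percentile 99.2 and the dimmest at 12.6, so probes of a single transcript spanned most of the scale.

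Ferritin, which stores iron, was represented by both of its chains. Ftl1, the light chain, had levels of 5.05, 5.28 and 4.96 (5.09 ± 0.17), and its 5 other probes lay at percentiles 98.1 to 99.1. Fth1, the heavy chain, had levels of 4.45, 4.67 and 4.26 (4.46 ± 0.20) from a single probe. By level, Control 2 was highest and Control 3 lowest in both chains, by 0.32 for Ftl1 and 0.40 for Fth1. Neither gene was called in the test of differences among the control samples.

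Atp1b1 and Lrp2, which have a known place in tubule transport, were also among the 30 brightest, as was the receptor gene Ghr. Atp1b1, the beta subunit of the sodium and potassium pump of the basolateral membrane, had levels of 4.94, 4.79 and 4.79 (4.84 ± 0.09), and its 2 other probes were at percentiles 98.2 and 98.8. Lrp2 encodes megalin, the endocytic receptor of the proximal tubule, and its levels were 4.42, 4.86 and 4.63 (4.64 ± 0.22). Its second probe was at percentile 85.7. Ghr, the growth hormone receptor, had levels of 4.89, 4.27 and 4.97 (4.71 ± 0.38) from its single probe. The samples lay close together for Atp1b1 and Lrp2. The level of Ghr was lower in Control 2, but Ghr was not called in the test of differences.

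Mitochondrial genes made up a further group. Slc25a5, the carrier that exchanges ADP for ATP across the inner membrane, had levels of 4.93, 4.93 and 4.56 (4.81 ± 0.22). Atp5b and Atp5a1, the beta and alpha subunits of ATP synthase, had means of 4.76 ± 0.54 and 4.72 ± 0.23. By level Control 2 was the highest sample for both, at 5.38 for Atp5b against 4.47 in Control 1 and 4.43 in Control 3. Neither was called in the test of differences. Sdha, the flavoprotein of complex II, was at 4.54 ± 0.19, Vdac1, the channel of the outer membrane, at 4.47 ± 0.20 and Slc25a3, the phosphate carrier, at 4.46 ± 0.51. The second probe of Vdac1 was at percentile 97.1, whereas the second probe of Slc25a5 and that of Slc25a3 were not above background.

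The remaining bright genes included the cytoplasmic actins Actb (4.86 ± 0.58) and Actg1 (4.48 ± 0.14), the cyclophilin Ppia (4.62 ± 0.24), the glycolytic enzyme Pgk1 (4.62 ± 0.39), the aldehyde reductase Akr1a1 (4.70 ± 0.50) and the endosomal tetraspanin Cd63 (4.79 ± 0.52). Several others are not usual names for the kidney cortex. Cxcr4, a chemokine receptor, stood second with levels of 6.12, 5.27 and 6.13 (5.84 ± 0.49) and has no other probe. Fbxl5, an iron-sensing F-box protein, followed with 5.50 ± 0.41, and its second probe was at percentile 85.6. Bmp1, a proteinase that processes procollagen, was at 5.44 ± 0.76 and Khdc1a at 4.59 ± 0.71, each with other probes that were not above background. The same was true of Fam169a, Sgce, Slc25a5, Gdap1 and Slc25a3, which makes 7 of the 21 genes among the 30 that have other probes. The other 9, among them Cxcr4, Scmh1, Ccdc115, Ddx1 and Pip4p1, rest on 1 probe. All 30 were above background in 6 of 6 measurements.

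**Figure D2:**
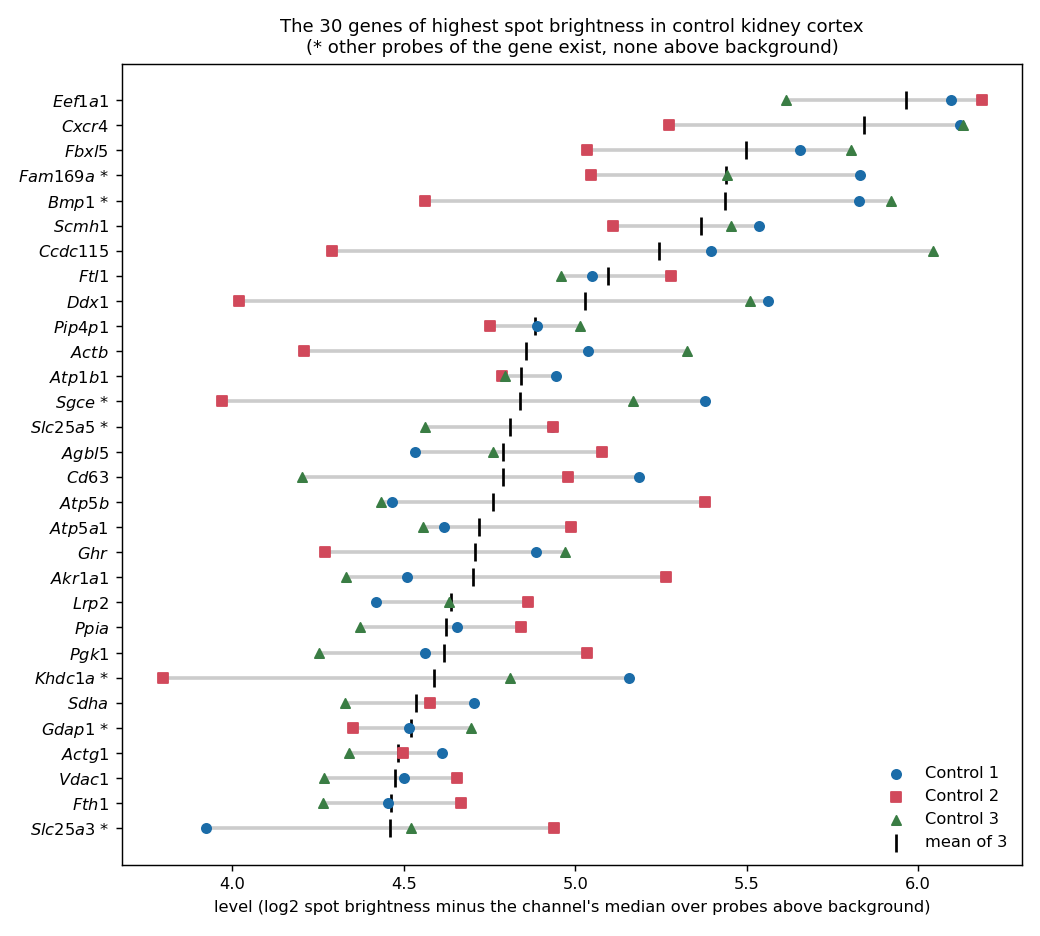
Levels of the 30 brightest genes (horizontal axis, log2 relative to the channel's median) in the 3 control samples, with the mean as a black bar. An asterisk marks the 7 genes with other probes of which none was above background. Control 2 lies apart from Control 1 and Control 3 for genes such as Ddx1 (4.02 against 5.56 and 5.51) and Bmp1 (4.56 against 5.83 and 5.92). Ddx1 was called in the test of differences among the control samples and Bmp1 was not.

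The very brightest probes could not be named. The first 12 in the order had no symbol, and 51 of the 100 brightest were unnamed, against 39.5% of all probes and 23.9% of those above background. Saturation touched 12 probes, all of them among the 100 brightest.

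The stretches of 100 bases before the start of 5 of the bright genes are shown because they carry different letters of the common promoter motifs. They were taken from RefSeq (build GRCm38.p6), in the direction of transcription, with 3 motifs in capitals. The first is the TATA box, searched as TATAAA. The next is the CCAAT box, which reads ATTGG where it lies on the reverse strand. The last is the GC box, searched as GGGCGG and shown as CCGCCC where it lies on the reverse strand. No overlap between motifs occurred in these stretches. They cover chr9:78481725-78481824 (minus strand) for Eef1a1, chr7:45459887-45459986 (minus strand) for Ftl1, chr10:128083207-128083306 (plus strand) for Atp5b, chr2:69586030-69586129 (minus strand) for Lrp2 and chr15:89334373-89334472 (plus strand) for Miox.
Eef1a1: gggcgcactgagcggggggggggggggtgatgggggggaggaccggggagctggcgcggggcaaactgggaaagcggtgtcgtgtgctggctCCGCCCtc
Ftl1: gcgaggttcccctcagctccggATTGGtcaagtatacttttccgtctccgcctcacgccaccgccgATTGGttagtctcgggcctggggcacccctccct
Atp5b: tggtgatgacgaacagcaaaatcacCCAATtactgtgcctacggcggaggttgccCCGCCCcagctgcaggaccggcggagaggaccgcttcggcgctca
Lrp2: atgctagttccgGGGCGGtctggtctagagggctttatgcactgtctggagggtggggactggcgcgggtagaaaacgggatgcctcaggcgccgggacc
Miox: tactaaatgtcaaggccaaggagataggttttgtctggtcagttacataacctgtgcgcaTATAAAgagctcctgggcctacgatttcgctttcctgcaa

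Ftl1 held CCAAT on the reverse strand at positions -78 and -34 from the start, Atp5b held it at -75, and Miox held TATAAA at -40. Over the 300 bases from 250 before to 50 after the start, TATAAA on either strand was found in 13% of the 238 genes of the brightest 10% with an entry in the table. It was found in 6.28% of 2181 other genes above background, in 7.23% of 3055 genes not above background and in 14.2% of all 27025 promoters of the table. CCAAT was found in 39.9%, 40.2%, 37.9% and 37.9% of these sets, and GGGCGG in 67.6%, 68.5%, 63.8% and 35.9%. The TATAAA share was thus higher in the brightest 10% than in the other genes of the array and close to that of all promoters, while the shares of the other motifs lay close together within the array. Among the genes of the respiratory chain and ATP synthase above background, 52.3% of 44 held CCAAT and 36.4% held GGGCGG. The median length of a gene from start to end was 16551 bases in the brightest 10%, 23125 bases in the other genes above background and 27460 bases in those not above it. These shares are descriptions of letters and lengths, with no test.

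Genes of energy metabolism lay high in the order. Of 63 genes of the respiratory chain and ATP synthase on the array 54 were above background and 22 were in the brightest 10%. Their median percentile was 84.0, against 48.8 for all genes above background, and ran from 81.7 to 86.3 with 1 control array left out. Among them Cox8a, a subunit of cytochrome c oxidase, had levels of 4.41, 3.95 and 4.89 (4.42 ± 0.47). All 4 brightest members, Atp5b, Atp5a1, Sdha and Cox8a, were within 1 log2 unit across samples. Cox6b2, Ndufa10, Ndufa12, Ndufa13, Ndufaf3, Ndufaf4, Ndufaf6, Ndufb10 and Sdhd were not above background. Of 16 genes of the tricarboxylic acid cycle 15 were above background and 2 in the brightest 10%, with a median percentile of 78.8 (74.7 to 80.9 with 1 control array left out). Idh2, the NADP-dependent isocitrate dehydrogenase, had levels of 2.64, 3.12 and 3.30 (3.02 ± 0.34), and Sucla2, a subunit of succinyl-CoA ligase, was at 2.50 ± 0.47. Suclg1 was not above background. Fatty acid oxidation had 18 of 22 genes above background and 4 in the brightest 10%, with a median percentile of 77.8 (73.2 to 80.3 with 1 control array left out). Hadhb, the beta subunit of the trifunctional protein, had levels of 2.90, 3.44 and 2.94 (3.09 ± 0.30). Hadha, the alpha subunit, was not above background, nor were Acads, Acaa1a and Acat1. Etfa, which passes electrons from acyl-CoA dehydrogenases, was at 2.76 ± 0.40, Echs1, an enoyl-CoA hydratase, at 2.60 ± 0.18 and Slc25a20, the carnitine carrier, at 2.26 ± 0.48.

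Sugar and amino acid metabolism followed the same pattern on fewer probes. Of 11 glycolysis genes 7 were above background, 5 of them in the brightest 10%. Pgk1 led them, followed by Gapdh (3.74 ± 0.47), Aldoa (3.52 ± 0.56) and Ldhb (2.66 ± 0.50). For Gapdh, Aldoa and Ldhb the level was highest in Control 2, at 4.22, 4.16 and 3.24, and none of them was called in the test of differences. Hk1, Pfkl, Pgam1 and Ldha were not above background. Of 5 genes of glucose synthesis 3 were above background, and Pck2 and Fbp2 were not. Of 18 genes of amino acid and ammonia metabolism 17 were above background and 6 in the brightest 10%. Oat, ornithine aminotransferase, had levels of 3.35, 3.52 and 3.58 (3.48 ± 0.12) and Acy3, an aminoacylase, 3.40, 3.59 and 3.10 (3.36 ± 0.25). Odc1, which makes putrescine from ornithine, was at 3.15 ± 0.25. Sat1, which acetylates polyamines, was unsteady at 4.28, 1.85 and 3.38 (3.17 ± 1.23) and was above background in 5 of 6 measurements.

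Most cytosolic ribosomal protein genes were above background in at least 4 of 6 measurements. Of 70 listed cytosolic ribosomal protein genes 67 were above background and 14 in the brightest 10%, with a median percentile of 74.7 (73.6 to 79.1 with 1 control array left out). The list leaves out Rps3a1, which was at percentile 95.1. Rpl36, Rpl22l1 and Rpl39l were not above background. Rpl10 was the brightest at 4.38, 4.08 and 4.29 (4.25 ± 0.15), followed by Rpl30 (3.71 ± 0.14), Rpl7 (3.52 ± 0.15) and Rpl9 (3.50 ± 0.72), the last of which was lower in Control 3, at 2.68. Ribosomal proteins have many near-identical copies in the genome, and cross-binding between them cannot be told apart here. The brightness of their probes was also compared between spot layouts, so it is not independent of the layout that gave the names. Of 50 translation factors 32 were above background with 6 in the brightest 10%, led by Eef1a1, Eef2 (3.42 ± 0.45) and Eif4a2 (3.39 ± 0.27). Eef1b2, a subunit of the exchange factor for Eef1a1, had levels of 1.74, 2.94 and 3.77 (2.82 ± 1.02), and its percentile ran from 84.5 to 95.8 with 1 array left out.

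Of 55 genes listed by chaperone symbols 39 were above background and 7 in the brightest 10%. Their median percentile was 74.3 (70.3 to 75.0), close to that of the ribosomal proteins. Hspa8, the constitutive cytosolic chaperone, was at 4.20 ± 0.55 and Pdia3, a disulfide isomerase of the endoplasmic reticulum, at 3.92 ± 0.26. Canx, or calnexin, was at 3.77 ± 0.15 and Hspa9, of the mitochondrial matrix, at 3.61 ± 0.40. Of 37 genes listed by proteasome symbols 28 were above background and 0 in the brightest 10%. The brightest were Psma6 at 2.00 ± 0.64 and Psma1 at 1.89 ± 0.21, both subunits of the core particle. Its members thus sat in the upper middle of the order, with a median percentile of 66.9 (63.9 to 69.5). The lysosomal list had 16 of 19 members above background and 6 in the brightest 10%, with a median percentile of 81.5 (79.7 to 85.4). Psap, the precursor of the saposins, had levels of 3.86, 4.38 and 4.22 (4.15 ± 0.27). The protease Ctsl was at 3.78 ± 0.25, the cholesterol carrier Npc2 at 2.73 ± 0.13 and the membrane protein Lamp2 at 2.55 ± 0.74.

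Antioxidant enzymes were among the brightest lists. Of 27 genes 21 were above background and 10 in the brightest 10%, with a median percentile of 81.7 (79.3 to 88.1). The peroxiredoxin Prdx1 had levels of 4.07, 4.29 and 4.01 (4.12 ± 0.15), the superoxide dismutase Sod1 was at 3.95 ± 0.24, and the glutathione peroxidase Gpx1 at 3.81 ± 0.36. Gstm1, a glutathione transferase, was at 3.67 ± 0.33. Gpx3, the secreted peroxidase that the proximal tubule releases to plasma, was at 3.63 ± 0.28. Hmox1, the stress-inducible haem oxygenase, was not above background. Of 15 genes of sodium, potassium and proton pumps 10 were above background and 4 in the brightest 10%, with a median percentile of 84.6 (81.8 to 86.3). After Atp1b1 came Atp6v1g1, a subunit of the proton pump (3.47 ± 0.55), Atp1b3 (3.04 ± 0.13) and Atp6v1b2 (2.68 ± 0.24). Solute carriers, the largest family with 106 genes, had 54 above background and 5 in the brightest 10%, and their median percentile of 45.0 (43.4 to 45.6) was near that of all genes. The brightest were the mitochondrial carriers Slc25a5, Slc25a3 and Slc25a39 (2.52 ± 0.25), followed by the amino acid transporter Slc38a7 (2.36 ± 0.50).

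**Figure D3:**
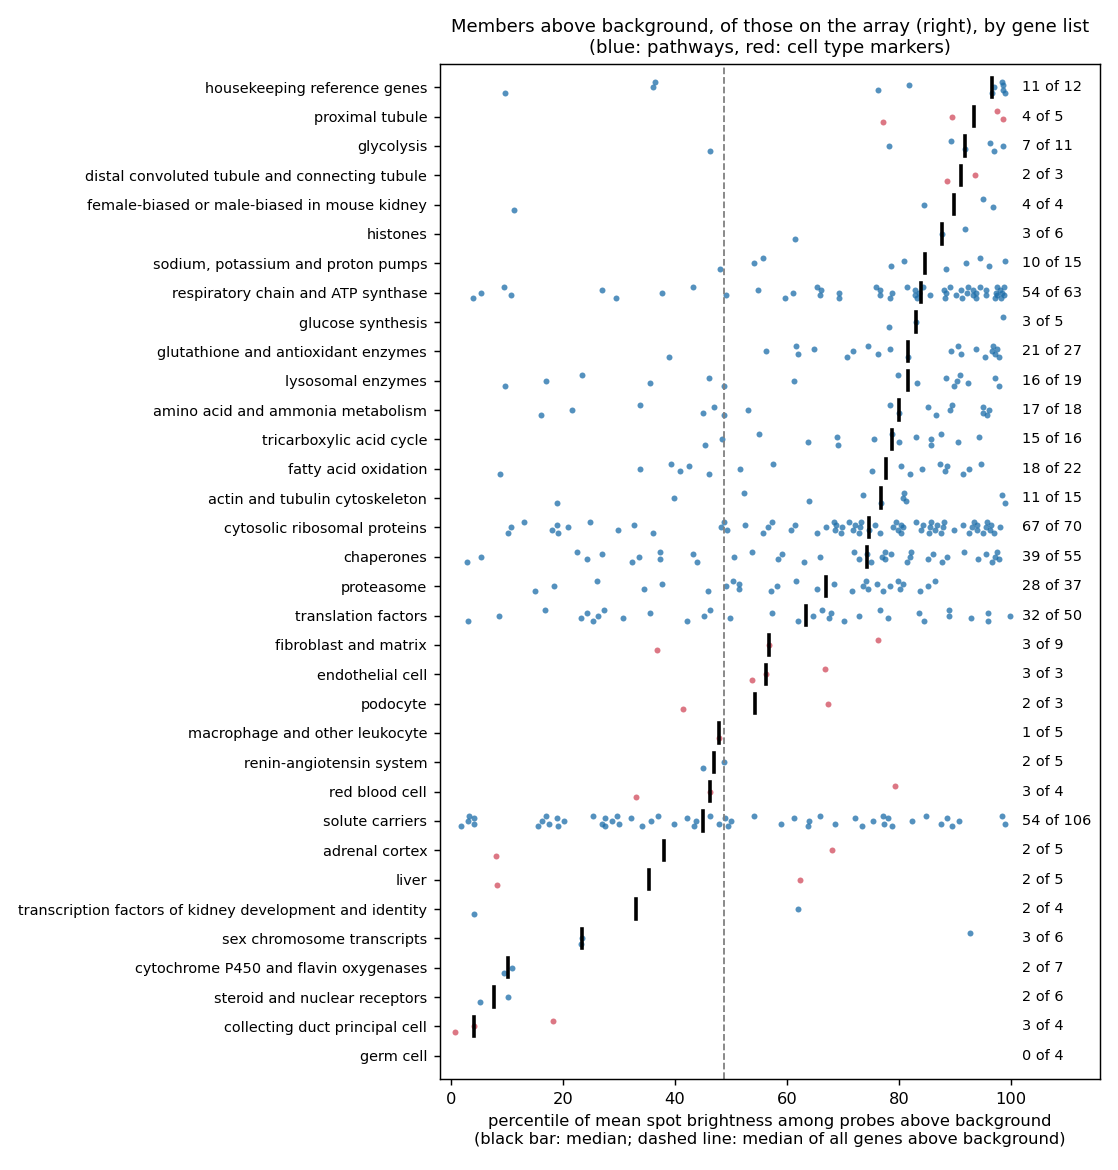
Percentile of mean spot brightness of each list member above background (horizontal axis) for the lists with at least 3 genes on the array, with the median as a black bar and the number above background of those on the array at the right. The respiratory chain and ATP synthase had a median of 84.0 and solute carriers one of 45.0, against 48.8 for all genes (dashed line).

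The markers of the labelled tissue were checked as far as the array carried them. Of 40 listed proximal tubule markers 5 were on the array, of which 4 were above background and 3 in the brightest 10%. Besides Lrp2 these were Miox, the inositol oxygenase of the proximal tubule, with levels of 3.91, 4.10 and 3.72 (3.91 ± 0.19), and Gatm, which makes the precursor of creatine, with 1.68, 2.48 and 2.93 (2.36 ± 0.63). Slc7a8, an amino acid exchanger, was at 1.29 ± 0.82, and Spp2 was not above background. Miox varied little between samples, and its percentile was 97.3 to 97.5 with each array left out.

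Distal segments gave a mixed picture. S100g, the calcium-binding protein of the distal convoluted and connecting tubule, had levels of 2.95, 2.72 and 3.01 (2.89 ± 0.15) and was in the brightest 10%. Calb1, calbindin of the same segments, had 1.56, 2.62 and 2.56 (2.25 ± 0.59). Slc8a1, the sodium and calcium exchanger, was not above background. None of the 9 markers of the thick ascending limb was on the array. Of the collecting duct markers on the array, Krt8, Gata3 and Krt18 were above background in 5, 4 and 4 measurements at percentiles 18.1, 4.02 and 0.663, and Fxyd4 was not above it. For Gata3 and Krt18 both channels of the array of Control 1 with Control 2 were at the floor. Without that array their percentiles were 29.0 and 18.7, so their place in the order rested on it. Slc4a1, the 1 intercalated cell marker on the array, was not above background.

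Of the endothelial, podocyte, fibroblast, leukocyte and mesangial lists, the members above background lay at percentiles 36.8 to 76.3. The shares above background were 100%, 66.7%, 33.3%, 20% and 50% in these lists, against 43.8% of all genes on the array. The endothelial genes Esam, Ehd3 and Emcn, 3 of 3 on the array, had levels of 0.64 ± 0.24, 0.04 ± 0.40 and -0.10 ± 0.35. Podxl, the sialomucin of podocytes that endothelium also carries, was at 0.68 ± 0.56 and Cd2ap, an adaptor of the slit diaphragm, was between -1.24 and 1.02 in the 5 measurements without a spot at the floor, while Wt1 was not above background. Of 9 fibroblast and matrix genes 3 were above background, namely Lum (1.23 ± 0.45), Sparc (0.08 ± 0.69) and Col3a1 (-1.07 ± 0.65). Of 5 leukocyte markers Lyz2 alone was above background (-0.44 ± 0.44), and C1qa, C1qb, S100a9 and Fcer1g were not. Of 2 mesangial and smooth muscle genes Cnn1 was above background (-0.32 ± 0.90) and Pdgfrb was not. In a bulk sample, fewer cells of a type and less RNA per cell cannot be told apart.

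Most markers of tissues outside the kidney were not above background, where 43.8% of all genes on the array were. The share above background was 40% in the liver list and in the adrenal cortex list, near that of all genes. With so few genes on the array, these counts do not show that a tissue was absent. This held for the 1 skeletal muscle gene (Mylpf), both neuronal genes (Gap43 and Tubb3), the 1 pancreatic gene (Cpa1) and all 4 germ cell genes (Ddx4, Dazl, Zp3 and Sycp3). Of 5 liver genes Ttr (0.40 ± 0.11) and Alb were above background, and Apoa1, Fga and Apob were not. Of 5 adrenal cortex genes Hsd3b1 (0.71 ± 0.40) and Star were, and Cyp11a1, Cyp17a1 and Mc2r were not. Lpl, the 1 adipocyte gene on the array, which other tissues also express, had levels of -0.11, 1.13 and 0.77. Alb and Star were above background in 4 of 6 measurements and at the floor in both channels of the array of Control 2 with Control 3. In the other 4 measurements Alb was between -0.85 and 0.01 and Star between -0.87 and -0.19. Neither passed the test of differences among the control samples described below (limma, adjusted p = 0.605 for Alb and 0.807 for Star).

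Regulators were represented by few probes. Of 6 steroid and nuclear receptors Nr1h3 and Rxrb were above background in 4 measurements each, at percentiles 10.2 and 5.08, and Esr1, Nr3c1, Thra and Esrra were not. Esr1, the oestrogen receptor alpha, exceeded background in 3 of 6 measurements. Of 4 transcription factors of the kidney Emx2 was at 0.38 ± 0.49, and Gata3 was between -2.25 and -0.46 in the 4 measurements not at the floor. In the renin and angiotensin list Ctsa was at -0.84, 0.20 and -0.51, while Agt, Agtr2 and Agtrap were not above background. Of 7 cytochrome P450 genes Cyp2c23, an arachidonic acid epoxygenase of the kidney, was between -1.11 and 0.94 in the 4 measurements not at the floor, and Cyp7b1 was at -3.30 ± 0.82. The peptidase Mme, also of the renin and angiotensin list, had a spot at the floor in 1 channel of Control 2 and was between 0.41 and 1.75 in the other 5 measurements. It did not pass the test of differences among the control samples (limma, adjusted p = 0.111), and its percentile ran from 21.6 to 75.8 with 1 array left out.

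Of genes known to differ between the sexes in mouse kidney all 4 on the array were above background. Hsd3b4, a steroid dehydrogenase, had levels of 3.57, 3.72 and 3.73 (3.67 ± 0.09). Cndp2, a dipeptidase, was at 1.84 ± 0.53 and Abcc3, an organic anion exporter, between -0.58 and 0.36 in the 4 measurements not at the floor. Xist exceeded background in 3 of 6 measurements and Eif2s3y in 0, so neither counted as above it. Both channels of the array of Control 2 with Control 3 had a spot at the floor for Xist. For Eif2s3y this held on the array of Control 1 with Control 2. In the other 4 measurements Xist was between -2.99 and -1.42 and Eif2s3y between -3.85 and -2.39. The sex of the mice is not read from these genes. Ddx3x, an X-linked helicase, was at 2.80 ± 0.24. Of 12 housekeeping genes 11 were above background and 6 in the brightest 10%. Tbp was not above background, and B2m had levels of 3.73, 3.64 and 3.56. Gusb was between -0.61 and -0.08 in the 4 measurements above background and at the floor on the array of Control 2 with Control 3 (limma, adjusted p = 0.729).

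The brightest genes were largely found again on other arrays. Of the 200 brightest genes, 166 were also among the 200 brightest in the control channels of the 6 arrays that paired control with menopausal RNA, which hold the same RNA on other slides. On the 3 arrays of menopausal RNA alone 173 were. With 1 control array left out 174 to 184 remained, and with 1 control sample left out 181 to 191. Of the 200, 12 are on the list of cytosolic ribosomal proteins and 18 on that of the respiratory chain and ATP synthase. The ribosomal protein gene Rps3a1, which the first list leaves out, is also among the 200. The median SD of level over the control samples was 0.29 among the 200 brightest genes and 0.52 among all genes above background. These SDs also hold differences between arrays and spots at the floor. In the ratios within arrays used by the test below, the order was the other way. There the median range over the control samples was 0.36 for the 200 brightest genes and 0.29 for all probes tested.

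Whether the 3 control samples differed from each other was tested over all 12 arrays with the moderated F statistic of limma, with Benjamini-Hochberg adjustment over the 4977 probes at 0.05. The error has 6 residual degrees of freedom and is technical, since it comes from repeated arrays of each RNA. Values are log2 ratios fitted per sample, relative to the mean of the 3 control samples. The test called 88 probes (1.77%), of which 29 have 1 symbol, 22 several and 37 none. Control 2 was the lowest sample in 76 of the 88, against 35.9% of all probes tested, and 56 were lowest in Control 2 and highest in Control 3. The number called fell to 23, 28 and 0 without Control 1, 2 and 3 and to 57 and 37 without Menopausal 1 and 3, and was 239 without Menopausal 2. It was 37, 56 and 53 without the array of Control 1 with Control 2, of Control 2 with Control 3 and of Control 3 with Control 1. Among the 200 brightest genes, each represented by a probe with 1 symbol, 5 were called (2.50%), and all 5 were lowest in Control 2. That is a larger share than the 29 called among the 3659 probes with 1 symbol above background.

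These 5 genes had fitted values of similar shape. Ttc3, a ubiquitin ligase, was at 0.65, -1.02 and 0.38 in Control 1, 2 and 3 (limma, adjusted p = 0.0111). Sgce, epsilon-sarcoglycan, was at 0.61, -0.88 and 0.27 (limma, adjusted p = 0.0187). Ddx1, an RNA helicase, was at 0.56, -0.84 and 0.28 (limma, adjusted p = 0.0197). In each of them Control 1 and Control 3 were close and Control 2 stood below both. Npc1, which exports cholesterol from lysosomes, was at 0.47, -0.80 and 0.33 and Golim4, a Golgi membrane protein, at 0.38, -0.74 and 0.36 (limma, adjusted p = 0.0322 and 0.0281). Without Control 2 the largest remaining range of the 5 was 0.25, for Sgce, and 0 of the 5 were called. None of the 5 was called without Control 1, Control 3, Menopausal 3 or the array of Control 1 with Control 2 either. They were called in 6 to 9 of 16 alternatives, with adjusted p from limma between 0.00167 and 0.995. In 37.2% to 55.2% of spots on both control arrays with Control 2 the signal did not exceed the local background, and the part of this in the result was not tested. Among the 100 brightest probes 14 were called, 12 of them unnamed and all 14 lowest in Control 2. The median range over the samples was 1.11 for the unnamed probes among these 100 and 0.44 for those with a symbol.

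Of 432 listed genes above background 2 were called, Hbb-b1 and Atp6v1a. That is a smaller share than the 29 called among the 3659 probes with 1 symbol above background. Hbb-b1, beta globin of red blood cells, was at -0.39, -0.70 and 1.09 (limma, adjusted p = 0.000677), and its second probe was at -0.65, -0.51 and 1.16 (limma, adjusted p = 0.00190). Control 3 was thus the highest sample in both probes, by over 1 log2 unit. The first probe was called in 15 of 16 alternatives, with adjusted p from limma between 0.000117 and 0.269, the highest being that without Control 3. Cross-binding of other beta globin transcripts to a cDNA probe cannot be told apart from Hbb-b1. Of 4 red blood cell genes on the array 3 were above background, with a median level of -0.40, -1.16 and 0.17 in Control 1, 2 and 3, and Alas2, an enzyme of haem synthesis in red cell precursors, was not. Slc25a37, the iron importer of mitochondria, had levels of -0.40, -1.16 and -0.06. How much blood each sample held was not tested. Atp6v1a, the catalytic subunit of the proton pump, was at 0.12, -0.59 and 0.48 (limma, adjusted p = 0.0465). It was called in 4 of 16 alternatives, with adjusted p from limma between 0.0171 and 0.536.

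**Figure D4:**
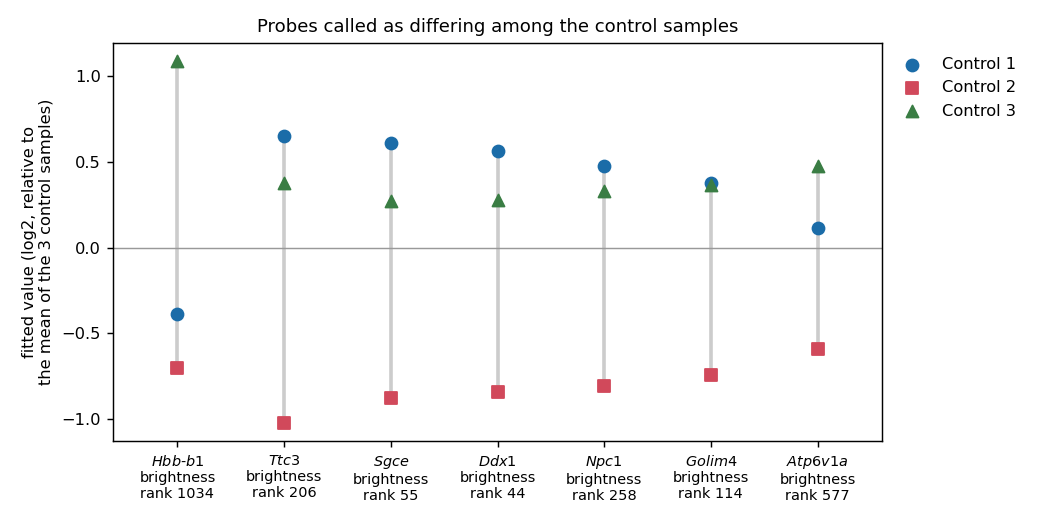
Fitted values (vertical axis, log2 relative to the mean of the 3 control samples) of the called genes among the 200 brightest and among the listed genes, with the brightness rank of the probe. Hbb-b1 was highest in Control 3, at 1.09, and all 7 were lowest in Control 2, the others from -1.02 for Ttc3 to -0.59 for Atp6v1a.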

How the data were processed

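Each array came with a scanner table deposited by the authors, which holds, per the file headers, raw spot and background intensity in each channel. The sources used here do not name the image software, and the deposited value table was left out because none of its 12 columns correlated best with the scanner table of its own label: in file order Spearman's rho was -0.157 to 0.261 with its own and 0.418 to 0.884 with another, 1 to 1. Which labels are right is not settled here, and each value per sample takes the scanner table's label as given. Probe numbers were assigned by a mirrored block layout that was inferred, since no file states it and the value table's numbering follows file order, and every gene name rests on it. In brightness, different probes of 1 gene correlated at r = 0.463 over 3477 pairs, against 0.0382 in file order. Ribosomal protein probes had a median percentile of 91.2 among all probes, against 50.2 in file order. As the layout was itself inferred from brightness, these values are no independent check of it. Spots marked other than normal were left out, and differences from background under 1 were set to 1. Symbols were updated for 9085 probes through the GRCm38.p6 gene table and kept for 106. Computed with Python 3.11.15, pandas 2.3.3 and limma 3.58.1: for the test, spot medians were corrected by normexp (offset 50), log2 ratios normalized by global loess per array, and fitted with a dye term and an intensity trend. On simulated data it called 87 of 100 probes changed by 1 log2 unit, 100 of 100 changed by 2, and 9 of 4777 unchanged. The simulated noise was independent between arrays and probes, and Control 3 alone was changed. Differences between arrays and blocks were not simulated, so these rates need not hold for the real arrays. Arrays limit the precision by their number. Named genes are the 30 brightest, up to 4 of the brightest in each list with the first 2 array genes of each marker list, and up to 8 called among the 200 brightest, of which 5 were called. Lists and members were chosen with earlier results of these data known. Lists drawn by the start of the gene symbol also hold some genes outside the named group. Examples are Psmc3ip under proteasome, Hspg2 under chaperones and the assembly factor Ndufaf1 under respiratory chain. P-values measure only the spread between arrays.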

Additional observations from a re-analysis of the deposited data

How the results depend on the processing

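Of the 200 brightest genes, 159 (mean of all probes of a gene) to 200 stayed among them under 17 alternatives, and 97 to 105 listed genes, against 100, were in the brightest 10%. The number of probes above background, 4977, ran from 4158 to 6353 under other thresholds and 4297 to 5253 with 1 control sample left out, and was 2563 where all 6 measurements were asked for. Of 714 counts per list 688 stayed within 1.5 times. The 88 probes called as differing among control samples were 120 with print-tip loess, 156 with median centring, 43 without background subtraction, 27 with plain subtraction and 36 without the filter, and the cause was not tested. With 1 sample or array left out, counts ran from 0 (without Control 3, with 775 probes at an unadjusted p under 0.05 by limma) to 239 (without Menopausal 2). Leaving out a control sample gave 23 (Control 1) and 28 (Control 2), leaving out Menopausal 1 or 3 gave 57 and 37, and leaving out a control array 37, 56 and 53. These array settings were chosen after seeing the data. No paired analysis was possible because a single group was compared within itself, each sample number occurring once, and the test already uses ratios within arrays. Local background limited what could be detected.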
